A study of Mus musculus with 6 samples.

Results

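Zinc metalloproteinases that cut extracellular matrix and cell-surface proteins, and the inhibitors that hold them in check, were followed in RNA from whole mouse ovaries. The genes were chosen by symbol, as members of the ADAM, ADAMTS, ADAMTSL (ADAMTS-like), MMP (matrix metalloproteinase) and TIMP (tissue inhibitor of metalloproteinases) families, and by a summed estimated read count of at least 60 over the 6 libraries. This kept 52 of the 72 genes with such symbols in a table of 18280 genes, namely 14 ADAM, 16 ADAMTS, 4 ADAMTSL, 14 MMP and 4 TIMP genes. Nearest to the limit, Adamtsl5, Mmp25 and Adam3 were kept with 67, 72 and 74 counts, while Adam4, Adamts20 and Adam28 were left out with 48, 44 and 31.07 counts.

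The ovaries came from 3 mice carrying a Dennd1a transgene (TG, labelled Dennd1aTG) and 3 wild-type mice (WT), and every animal had received PMSG, which acts like FSH and makes follicles grow, 44 h earlier. The promoter of the transgene, the number of transgenic lines, the strain and the age of the mice are not given in the sources used here. Dennd1a itself measured 570.2, 582 and 588 CPM (counts of a gene relative to the scaled library size) across TG replicates 1 to 3, beside 44.6, 39.5 and 49.3 CPM across WT replicates 1 to 3, so each library carried the level that its label calls for. The comparison of genotypes asks how the transgene affects the ovary during growth of follicles under FSH drive.

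MMPs and ADAMTS enzymes are made as inactive precursors, and most need removal of a propeptide before the zinc at their active site can cut matrix. ADAM proteins are membrane-anchored, and several of them release growth factors, cytokines and receptors from the cell surface, a step called shedding. In the ovary these enzymes are known for remodelling the follicle wall and the cumulus matrix, and Adamts1 is needed for full fertility in female mice. TIMPs bind the active site of the mature enzymes, while ADAMTSL proteins share the accessory domains of ADAMTS enzymes but have no protease domain.

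Libraries held between 17075484 and 18516171 estimated counts, of which these 52 genes took between 0.217% and 0.270%. The tissue markers were as the label ovary calls for, with 9 of 9 granulosa, 8 of 8 theca and 8 of 9 oocyte markers above the filter on low counts. Some libraries stood apart in some markers. The fat genes Cfd and Fabp4 measured 86.8 and 48.1 CPM in TG replicate 2, against 9.45 and 5.81 CPM or less elsewhere. Plin1, another tested fat gene, measured 20.8 CPM there against 10.9 to 19.2 CPM elsewhere. The oviduct gene Ovgp1 measured 40.9 CPM in WT replicate 3 against 5.99 CPM or less elsewhere. Tppp3, the other oviduct marker tested, did not follow, at 10.8 CPM there against 7.82 to 11.7 CPM elsewhere. Smooth muscle and pericyte markers summed to 2398.5 CPM in WT replicate 3, against 1573 to 1956 CPM elsewhere. Of this list, Des measured 126 CPM there against 31.8 to 40.5 CPM elsewhere, while Rgs5 was lowest there. Markers of macrophages and other myeloid cells summed to between 387 and 420.1 CPM in TG and between 428 and 697 CPM in WT. Of these markers, 15 of 15 had log2 fold changes below 0, edgeR called 0 of 15, and 9 had an unadjusted p under 0.05. Over all genes tested, 6969 of 14124 were below 0, 1.02% were called lower and 4.08% had such a p. All 16 tested genes of an interferon-response list were called lower in TG by edgeR. Of 5 tested erythrocyte markers, 3 were called higher in TG by edgeR, against 0.0354% of all genes tested. In a whole organ, fewer cells of a type and less RNA per cell cannot be told apart.

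Levels spanned more than 3 orders of magnitude, with an inhibitor at the top. Compared per transcript length, in FPKM (fragments scaled by transcript length and library size), Timp1 was the most abundant gene of the set at a mean of 248 FPKM over the 6 libraries, rank 320 among the 18280 genes. Timp2 followed at 82.0 FPKM, then the membrane-type protease Mmp14 at 74.8, Timp3 at 64.9, the gelatinase Mmp2 at 60.2, the stromelysin Mmp11 at 47.7 and the sheddase Adam10 at 39.5 FPKM. In all, 15 genes averaged at least 10 FPKM, 21 lay between 1 and 10 FPKM and 16 lay under 1 FPKM, down to Adam22 at 0.143 FPKM. Of the 51 neighbouring pairs in this order, 47 had ranges over the libraries that overlapped. The 4 steps without overlap lay below Timp1, below Adam10, between Mmp19 (7.23 FPKM) and Adam12 (4.63 FPKM), and between Mmp17 (2.96 FPKM) and Adamts6 (1.92 FPKM).

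**Figure D1:**
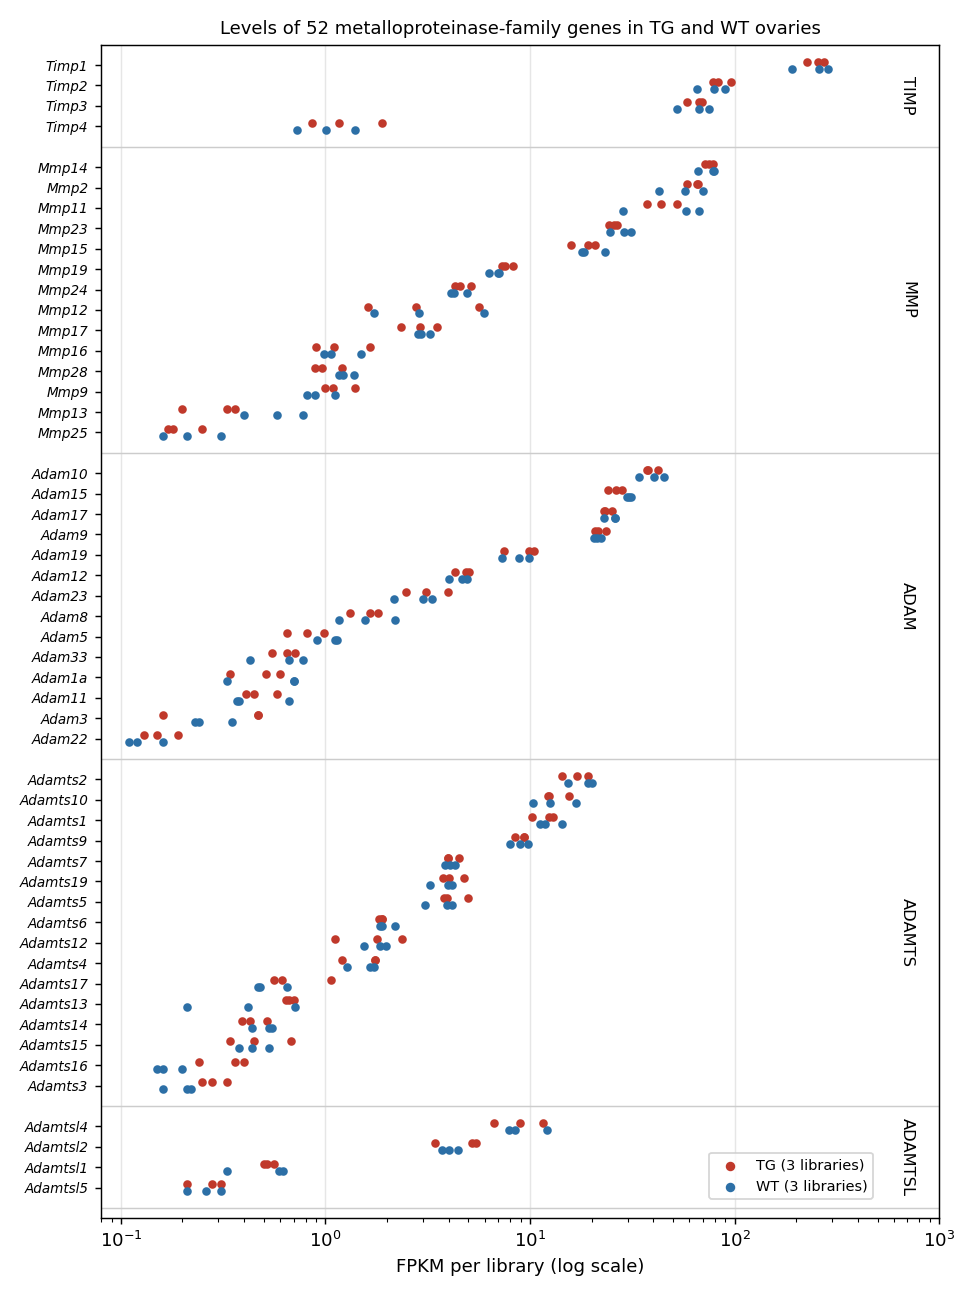
Level of each of the 52 genes in every library, in FPKM on a log axis, with TG libraries in red drawn above WT libraries in blue and genes grouped by family. Timp1 lies highest at a mean of 248 FPKM, and the points of both genotypes overlap for most genes.

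Summed over family members, TIMP transcripts exceeded MMP transcripts in every library through Timp1, which made up between 57.8% and 64.9% of the TIMP sum. The 4 TIMP genes summed to 389, 396 and 427 FPKM in TG replicates 1 to 3 and to 451, 309 and 407 FPKM in WT replicates 1 to 3. The 14 MMP genes summed to 260.3, 254 and 235 FPKM in the TG libraries and to 279, 199 and 279 FPKM in the WT libraries. The ratio of these sums lay between 1.49 and 1.82 in TG and between 1.46 and 1.61 in WT, ranges that overlap. Without Timp1 the other 3 TIMP genes summed to less than the MMP genes in every library, between 139 and 164 FPKM in TG and between 119 and 165 FPKM in WT. Each family's sum rested on few genes, since Mmp14, Mmp2 and Mmp11 made up between 69.0% and 76.2% of the MMP sum, and Adam10, Adam15, Adam17 and Adam9 between 82.2% and 86.9% of the ADAM sum.

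The inhibitors overlapped between genotypes for all 4 genes. Timp1, a secreted inhibitor of most MMPs, measured 158, 187 and 196 CPM across TG replicates 1 to 3, beside 203, 138 and 187 CPM across WT replicates 1 to 3, and its log2 fold change of TG over WT was 0.04 (95% CI -0.28 to 0.36). WT replicate 2 was the lowest library and WT replicate 1 the highest, so both extremes lay within one genotype. Timp2, which inhibits MMPs and also helps Mmp14 activate the Mmp2 precursor, measured 326, 274 and 287 CPM in the TG libraries, against 307, 227 and 276 CPM in the WT libraries, with a log2 fold change of 0.13 (95% CI -0.14 to 0.40). Timp3, which is held in the matrix and inhibits ADAM and ADAMTS enzymes as well as MMPs, measured 298, 268 and 311 CPM in the TG libraries, against 336, 239 and 304 CPM in the WT libraries, with a log2 fold change of -0.0024 (95% CI -0.28 to 0.28). WT replicate 2 was again the lowest library for both genes. Timp4 was far scarcer at a mean of 1.18 FPKM, measured 1.44, 2.41 and 1.11 CPM across TG replicates 1 to 3, beside 1.72, 0.93 and 1.29 CPM across WT replicates 1 to 3, and was highest in TG replicate 2. Its log2 fold change was 0.33 (95% CI -0.50 to 1.15) and was -0.04 without TG replicate 2, the library with high Cfd and Fabp4. Exons of Timp3 share 21.3% of their bases with exons of Syn3, which lies on the other strand, and Syn3 had 313 counts over all libraries against 31140 for Timp3.

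Among the membrane-type MMPs, Mmp14 (MT1-MMP), the main activator of the Mmp2 precursor, was the most abundant. It measured 280.1, 277 and 259 CPM across TG replicates 1 to 3, beside 284, 242 and 288 CPM across WT replicates 1 to 3, and its log2 fold change was 0.0046 (95% CI -0.20 to 0.21). The values of both genotypes lay close together, apart from a lower value in WT replicate 2. Its relatives descended from Mmp15 at 19.3 FPKM through Mmp24 at 4.55, Mmp17 at 2.96 and Mmp16 at 1.2 to Mmp25 at 0.213 FPKM. Those 5 genes had log2 fold changes between -0.29 for Mmp25 and 0.17 for Mmp16, and the libraries of both genotypes overlapped for each.

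The gelatinases differed widely in level. Mmp2, which degrades denatured collagen and basement membrane, measured 190.0, 194 and 169 CPM across TG replicates 1 to 3, beside 167, 126 and 206 CPM across WT replicates 1 to 3, with a log2 fold change of 0.15 (95% CI -0.20 to 0.50). The WT libraries spanned the TG ones, with the lowest value in WT replicate 2 and the highest in WT replicate 3. Left out in turn, these 2 libraries moved the log2 fold change of Mmp2 to -0.01 and 0.34. Mmp9, the other gelatinase, was 1.05 FPKM on average and measured 4.16, 3.04 and 3.27 CPM in the TG libraries, against 2.43, 3.39 and 2.7 CPM in the WT libraries, with a log2 fold change of 0.30 (95% CI -0.22 to 0.82).

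Mmp11, a stromelysin that furin activates inside the cell, varied most across libraries among the 15 genes of at least 10 FPKM, with a 2.30-fold span. It measured 88.3, 107 and 76.3 CPM across TG replicates 1 to 3, beside 137, 59.5 and 120.2 CPM across WT replicates 1 to 3, so the highest and lowest libraries were both WT. Its log2 fold change was -0.22 (95% CI -0.81 to 0.37), and it was -0.50 without WT replicate 2 and 0.01 without WT replicate 1. Mmp23, a membrane protein with a cysteine-rich array in place of the usual haemopexin domain, measured 35.1, 32.9 and 33.5 CPM across TG replicates 1 to 3, beside 41.5, 33.0 and 38.9 CPM across WT replicates 1 to 3, with a log2 fold change of -0.16 (95% CI -0.39 to 0.07). WT replicate 2 lay within the TG range and the other WT libraries above it.

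Mmp19 measured 23.5, 26.4 and 23.0 CPM across TG replicates 1 to 3, beside 22.3, 20.1 and 22.3 CPM across WT replicates 1 to 3, with every TG value above every WT value by a narrow margin. The log2 fold change of Mmp19 was 0.17 (95% CI -0.06 to 0.41). Counts of Mmp19 were not whole numbers in any library, as when reads are divided among genes, and 22.3% of its exon bases are shared with Tmem198b on the other strand, which had 1596 counts against 2438 for Mmp19. Mmp28 (epilysin), likewise never whole, shares 12.0% of its exon bases with 1700020L24Rik, which had 54.7 counts against 406 for Mmp28.

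The scarcest MMP genes lay side by side on one chromosome. On the mouse assembly GRCm38.p6, 9 of the 21 MMP genes in the table lie within 427 kb of chromosome 9, from 7272514 to 7699585, in the order Mmp13, Mmp12, Mmp1b, Mmp3, Mmp10, Mmp8, Mmp27, Mmp20 and Mmp7. This is the cluster of collagenases, stromelysins and matrilysin. It held all 7 MMP genes with fewer than 60 counts, and 0 of the 12 MMP genes elsewhere fell under that limit. The count limit that chose the genes is one measure of level, so these levels are a description. Mean levels ran from 0.0033 to 3.42 FPKM in the cluster, with a median of 0.0867 FPKM, and from 0.213 to 74.8 FPKM elsewhere, with a median of 5.89 FPKM. Mmp20, the enamel protease, and Mmp1b had 1 count each over all 6 libraries, and Mmp10 and Mmp3, both stromelysins, had 2 and 5. Mmp7 (matrilysin) had 8 counts, all of them in WT replicate 3, the library with the high oviduct gene Ovgp1.

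**Figure D2:**
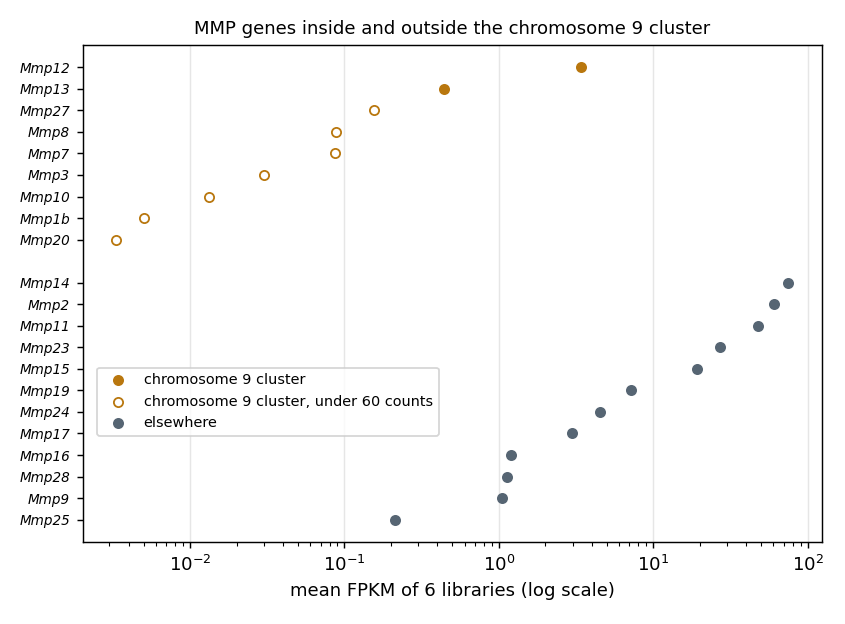
Mean FPKM over the 6 libraries, on a log axis, of the 21 MMP genes, split into the 9 genes of the chromosome 9 cluster and the 12 elsewhere. Open symbols mark the 7 genes with fewer than 60 counts, and all of them belong to the cluster, whose top gene Mmp12 averages 3.42 FPKM.

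Most of the cluster genes also shared promoter letters that were not found for the 7 of the 12 MMP genes elsewhere that had a promoter window. Of the 52 genes, 32 had a promoter window in the RefSeq table. Mmp2, Mmp9, Mmp16, Mmp17 and Mmp19 were not among them, so the comparison does not cover these genes. Windows from 250 bases before to 50 bases after each RefSeq start (GRCm38.p6) were searched for the AP-1 site TGANTCA, which reads the same on both strands, and on the gene's own strand for the TATA box TATAAA, letters that do not overlap in these windows. AP-1 is the Fos and Jun transcription factor known to drive several MMP genes. The AP-1 letters were present for 7 of the 9 cluster genes and for 0 of the 7 other MMP genes that had a window. The share was 8.97% over all 27025 genes with a window. The TATA letters were likewise present for 7 of 9 and 0 of 7 genes, against 9.77% of all genes with a window. The 7 cluster genes were Mmp1b, Mmp3, Mmp7, Mmp10, Mmp12, Mmp13 and Mmp20 for both motifs. Windows of the cluster held a median of 1 CG dinucleotide, and those of the other MMP genes a median of 19.5. A match describes the letters and is not evidence of a bound factor. The 120 bases before the start are given for 6 of these genes, with AP-1 and TATA letters in capitals, to show where the 2 motifs lie. For Mmp12 and Mmp7, which have 2 annotated starts each, the bases of the start with the match are given, and the TATA letters of Mmp12 fall after the start and outside the stretch.
Mmp13, chr9:7272394-7272513, plus strand: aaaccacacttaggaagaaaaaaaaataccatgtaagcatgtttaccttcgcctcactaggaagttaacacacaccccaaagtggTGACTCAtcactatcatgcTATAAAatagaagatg
Mmp12, chr9:7347254-7347373, plus strand: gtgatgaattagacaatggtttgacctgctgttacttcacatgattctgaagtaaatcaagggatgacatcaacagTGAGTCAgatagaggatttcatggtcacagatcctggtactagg
Mmp3, chr9:7445702-7445821, plus strand: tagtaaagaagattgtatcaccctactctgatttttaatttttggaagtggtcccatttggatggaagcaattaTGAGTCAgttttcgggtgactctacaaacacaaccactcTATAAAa
Mmp10, chr9:7502222-7502341, plus strand: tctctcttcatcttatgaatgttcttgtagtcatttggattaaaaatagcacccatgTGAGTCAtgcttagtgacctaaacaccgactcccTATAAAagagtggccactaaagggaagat
Mmp7, chr9:7691970-7692089, plus strand: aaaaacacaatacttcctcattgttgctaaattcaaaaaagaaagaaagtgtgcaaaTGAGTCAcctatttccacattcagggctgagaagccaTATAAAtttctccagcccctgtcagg
Mmp1b, chr9:7388027-7388146, minus strand: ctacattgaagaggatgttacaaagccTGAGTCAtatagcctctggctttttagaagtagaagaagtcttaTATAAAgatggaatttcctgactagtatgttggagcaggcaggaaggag
The same stretch of 2 abundant genes outside the cluster is shown for contrast, with no match.
Mmp14, chr14:54431478-54431597, plus strand: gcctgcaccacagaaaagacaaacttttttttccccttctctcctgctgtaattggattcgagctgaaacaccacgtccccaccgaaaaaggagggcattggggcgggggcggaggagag
Mmp11, chr10:75932503-75932622, minus strand: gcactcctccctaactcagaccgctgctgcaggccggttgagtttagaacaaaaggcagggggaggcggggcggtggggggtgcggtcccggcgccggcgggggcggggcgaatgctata
The 120 bases held 5 CG pairs for Mmp14 and 11 for Mmp11, against 0 or 1 in the 6 cluster stretches shown. The stretch before the other Mmp7 start, with no match to either motif, held 5 CG pairs, as many as Mmp14, and that before the other Mmp12 start held 0 and no match.

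The pair of cluster genes above the limit had the widest spans of highest over lowest library among the 52 genes, 3.59-fold for Mmp12 and 3.88-fold for Mmp13, a span that for Mmp13 includes the gap between genotypes. Mmp12, the macrophage elastase, measured 9.27, 2.81 and 4.55 CPM across TG replicates 1 to 3, beside 4.9, 3.01 and 10.1 CPM across WT replicates 1 to 3. One library of each genotype stood far above the others, and the genotypes overlapped. The log2 fold change of Mmp12 was -0.11 (95% CI -1.21 to 0.995), among the widest intervals of the set. The summed myeloid markers were 420.1, 387 and 401 CPM in TG and 596, 428 and 697 CPM in WT, which is not the order of the Mmp12 values, and their part in the values was not tested. Mmp13, collagenase-3, averaged 0.442 FPKM and is taken up with the smallest p-values.

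Of the ADAMTS enzymes, those that cut procollagen, fibrillin matrix and large proteoglycans led. Adamts2, which removes the amino-terminal propeptide of fibrillar procollagens, was the most abundant at 17.5 FPKM and measured 131, 99.4 and 118 CPM across TG replicates 1 to 3, beside 133, 107 and 138 CPM across WT replicates 1 to 3. The genotypes overlapped, and the lowest value of each was the library of replicate 2. For Adamts2 the log2 fold change was -0.12 (95% CI -0.41 to 0.17). The other procollagen N-proteinases, Adamts3 and Adamts14, averaged 0.242 and 0.477 FPKM. Adamts10, which binds fibrillin, measured 46.3, 45.8 and 58.0 CPM in the TG libraries, against 47.0, 39.9 and 63.9 CPM in the WT libraries, with WT replicates 2 and 3 as the extremes, and its log2 fold change of -0.01 (95% CI -0.39 to 0.37) was 0.20 without WT replicate 3.

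The proteoglycanases overlapped between genotypes for all 4 genes described. Adamts1, which the LH surge induces and which cuts versican in the cumulus matrix, measured 60.05, 59.0 and 48.1 CPM across TG replicates 1 to 3, beside 67.0, 53.0 and 56.4 CPM across WT replicates 1 to 3, with a log2 fold change of -0.08 (95% CI -0.35 to 0.19). Its neighbour Adamts5, an aggrecanase that lies within 107 kb of chromosome 16 together with Adamts1, measured 39.0, 31.6 and 30.2 CPM in the TG libraries, against 31.0, 33.2 and 24.5 CPM in the WT libraries, with a log2 fold change of 0.18 (95% CI -0.13 to 0.49). TG replicate 1 was the highest library for Adamts5, and WT replicate 1 for Adamts1. The log2 fold change of Adamts5 was 0.06 without TG replicate 1 and 0.07 without WT replicate 3. Adamts9, which also cuts versican and aggrecan, measured 59.8, 59.96 and 53.6 CPM across TG replicates 1 to 3, beside 64.8, 53.1 and 59.0 CPM across WT replicates 1 to 3, with a log2 fold change of -0.03 (95% CI -0.25 to 0.19). Adamts4 was scarcer, with 1.56 FPKM on average, and measured 6.05, 4.25 and 6.12 CPM in the TG libraries, against 5.77, 6.07 and 4.46 CPM in the WT libraries. For Adamts4 the log2 fold change was 0.01 (95% CI -0.46 to 0.48), and the lowest library of each genotype was one of those that stood apart.

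The remaining ADAMTS genes lay between 0.252 FPKM for Adamts16 and 4.11 FPKM for Adamts7, a protease of cartilage oligomeric matrix protein. Adamts19 was in the upper part of this range at 3.99 FPKM, with a log2 fold change of 0.14 (95% CI -0.17 to 0.44). Adamts6, Adamts7, Adamts12, Adamts14, Adamts15 and Adamts19 had log2 fold changes between -0.18 and 0.14. Adamts13, the protease of von Willebrand factor, measured 2.28, 2.18 and 2.1 CPM across TG replicates 1 to 3, beside 0.701, 1.37 and 2.35 CPM across WT replicates 1 to 3. The TG values lay close together within the WT range, whose extremes were WT replicates 1 and 3, and the log2 fold change was 0.58 (95% CI -0.28 to 1.44).

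ADAMTSL genes were led by Adamtsl4, a fibrillin-binding protein at 9.27 FPKM, which measured 24.0, 30.8 and 39.5 CPM across TG replicates 1 to 3, beside 29.2, 32.3 and 44.3 CPM across WT replicates 1 to 3. Replicate 3 was the highest library of each genotype, and the log2 fold change was -0.16 (95% CI -0.61 to 0.28). Adamtsl2, which also associates with fibrillin and limits TGF-beta signalling, measured 16.4, 10.6 and 15.9 CPM in the TG libraries, against 12.3, 11.3 and 13.7 CPM in the WT libraries, with a log2 fold change of 0.20 (95% CI -0.20 to 0.60). TG replicate 2 was below every WT library and the other TG libraries were above them all, and the log2 fold change was 0.37 without TG replicate 2, 0.09 without TG replicate 1 and 0.12 without TG replicate 3. Adamtsl1 and Adamtsl5 averaged 0.520 and 0.263 FPKM, with log2 fold changes of 0.02 (95% CI -0.54 to 0.59) and 0.08 (95% CI -0.69 to 0.84).

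Among the sheddases, Adam9 and Adam17 had the narrowest spans over the 6 libraries of all 52 genes. Adam10, which cuts Notch receptors and many other surface proteins, measured 185, 169 and 165 CPM across TG replicates 1 to 3, beside 199, 181 and 152 CPM across WT replicates 1 to 3, with a log2 fold change of -0.04 (95% CI -0.28 to 0.20). Adam17, which releases TNF and most ligands of the EGF receptor, measured 107, 99.9 and 99.6 CPM across TG replicates 1 to 3, beside 110.5, 112 and 99.4 CPM across WT replicates 1 to 3. Its log2 fold change was -0.07 (95% CI -0.26 to 0.11), and its highest library was 1.13-fold above its lowest. Adam9 measured 89.7, 81.4 and 82.7 CPM in the TG libraries, against 82.0, 87.3 and 80.0 CPM in the WT libraries, a 1.12-fold span, with a log2 fold change of 0.03 (95% CI -0.15 to 0.21).

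Below these, the meltrins Adam19 and Adam12 averaged 8.97 and 4.63 FPKM, with log2 fold changes of 0.07 (95% CI -0.26 to 0.40) and 0.06 (95% CI -0.18 to 0.29). Adam8, known from leukocytes, averaged 1.62 FPKM and differed between genotypes by -0.05 (95% CI -0.62 to 0.52) on the log2 scale. Adam23, Adam11 and Adam22, which lack a working protease site and bind LGI proteins in neurons, averaged 3.01, 0.475 and 0.143 FPKM. Their log2 fold changes were between 0.05 and 0.22. Adam33 averaged 0.63 FPKM in this range, with a log2 fold change of 0.0028 (95% CI -0.63 to 0.64). Adam1a, Adam3 and Adam5, known for roles in mouse sperm, were detected at 0.530, 0.320 and 0.935 FPKM. Of the exon bases of Adam1a 63.7% are shared with the annotated gene Gm42878 and 24.0% with Mapkapk5, so its level here is uncertain. Adam3 and Adam5 lie with the abundant Adam9 in a run of 5 ADAM genes within 415 kb of chromosome 8, whose other 2 genes, Adam18 and Adam32, had 8 and 21 counts.

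All 52 genes had enough counts for the test, and edgeR called 0 of them at an adjusted p under 0.05, against 1.05% of the 14124 genes tested, of which 0.0354% were called higher and 1.02% lower in TG. DESeq2 and limma-voom also called 0, as did edgeR without TG replicate 2 plus WT replicate 3 and with each library left out in turn. The lowest adjusted p of the set was 0.755 (edgeR). Unadjusted, 3 of the 52 (5.77%) had a p under 0.05 in edgeR, against 4.08% of all genes tested, and 5 of the 52 (9.62%) had TG and WT libraries without overlap, against 8.25%. Of these, 3 had TG above WT, against 3.21% of all genes, and 2 had TG below WT, against 5.04%. Both shares are near the background and are not a result about these genes. The count of 3 was 0 without TG replicate 1 and 6 without WT replicate 3. It was 5 without TG replicate 2 and WT replicate 3, and 1 with DESeq2. In the same order, 3.744%, 5.198%, 6.568% and 2.904% of all genes tested had an unadjusted p under 0.05. The background moved with the setting, so these changes in the count are not a result about these genes. The median log2 fold change was 0.01 over the 52 genes and 0.0019 over all genes tested, with 28 of the 52 above 0 and 24 below. By family, the medians were -0.08 for MMP, 0.0015 for ADAMTS, 0.01 for ADAM, 0.05 for ADAMTSL and 0.08 for TIMP genes.

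**Figure D3:**
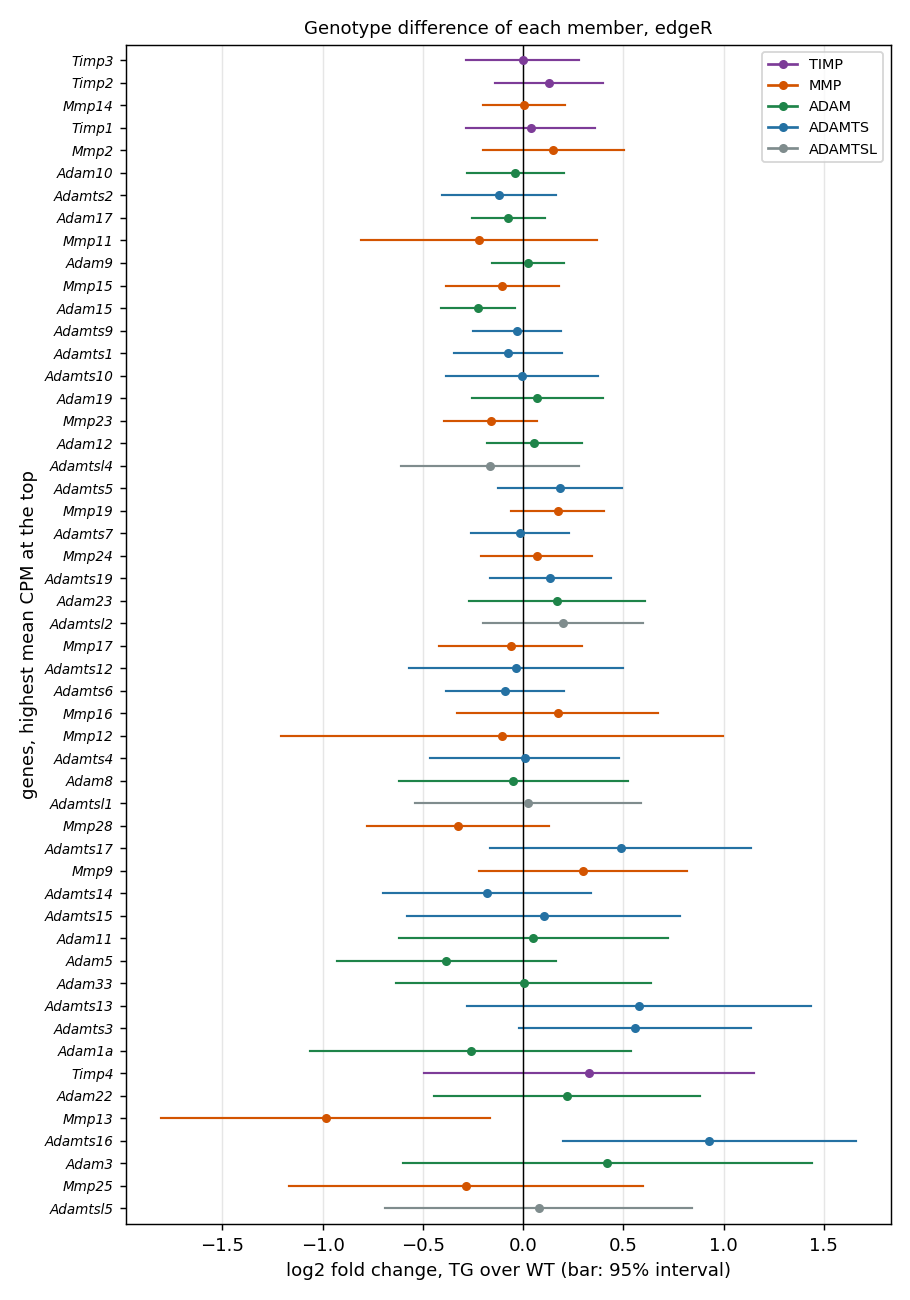
Log2 fold change of TG over WT from edgeR for each of the 52 genes, with its 95% interval, ordered from the highest mean CPM at the top to the lowest and coloured by family. The intervals of 49 genes include 0, and those of scarce genes at the bottom are the widest.

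A p above the threshold does not show that levels were equal, and the intervals give what the data allow. For the 29 genes with a mean of at least 10 CPM, 25 had a 95% interval within a 1.5-fold change either way and all 29 within a 2-fold change. Mmp11, Adamtsl4, Adamtsl2 and Adam23 were the 4 whose intervals passed 1.5-fold. For the 23 genes under 10 CPM only 1, Adamts4, had an interval within 1.5-fold, and 13 had one within 2-fold. Within 1.5-fold, the shares were 86.2% of the 29 and 4.35% of the 23, against 93.3% and 24.2% of all tested genes at these levels. Within 2-fold, they were 100% and 56.5%, against 98.2% and 66.7%. The median standard error was 0.13 in the more abundant genes and 0.29 in the scarcer ones, on the log2 scale, beside 0.10 and 0.27 over all tested genes split the same way.

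The 6 genes with the smallest p were mostly scarce ones, and none of them passed over all genes. Adamts16 had the smallest and measured 1.78, 1.44 and 1.05 CPM across TG replicates 1 to 3, beside 0.754, 0.602 and 0.881 CPM across WT replicates 1 to 3. Every TG value was above every WT value, and the log2 fold change was 0.93 (95% CI 0.20 to 1.66) with an unadjusted p of 0.0181 and an adjusted p of 0.755 in edgeR. Mmp13 measured 0.499, 0.919 and 0.817 CPM across TG replicates 1 to 3, beside 1.94, 1.48 and 0.998 CPM across WT replicates 1 to 3, with every TG value below every WT value, although TG replicate 2 (0.919 CPM) and WT replicate 3 (0.998 CPM) nearly met. The log2 fold change of Mmp13 was -0.98 (95% CI -1.81 to -0.16), with an unadjusted p of 0.0237 and an adjusted p of 0.880 in edgeR. Both genes rest on few reads, with between 18 and 32 counts per library in TG and between 11 and 15 in WT for Adamts16, and between 9 and 16 in TG and between 17 and 36 in WT for Mmp13. The unadjusted p of Adamts16 in edgeR was 0.0882 without TG replicate 1 and 0.0604 without WT replicate 2, and that of Mmp13 was 0.0937 without TG replicate 1 and 0.110 without WT replicate 1.

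Adam15 was the abundant gene among the 6, at 28.3 FPKM. This membrane protein is known from vessels. It measured 70.9, 66.6 and 76.5 CPM across TG replicates 1 to 3, beside 80.6, 83.9 and 85.3 CPM across WT replicates 1 to 3. Every TG value was below every WT value. Adam15 averaged 71.3 ± 4.96 CPM over the TG libraries and 83.3 ± 2.38 CPM over the WT libraries (SD, n = 3 each), and the log2 fold change was -0.22 (95% CI -0.41 to -0.04). Its unadjusted p was 0.0226 and its adjusted p 0.861 in edgeR. The antisense gene 4731419I09Rik shares 20.6% of the exon bases of Adam15 and the counts of Adam15 were whole numbers in all 6 libraries; how reads of the shared bases were counted was not tested. Endothelial markers summed to 807, 671 and 860.0 CPM across TG replicates 1 to 3, beside 833, 1032 and 764 CPM across WT replicates 1 to 3. This is not the order of the Adam15 values, which were highest in WT replicate 3. Libraries of both genotypes overlapped for each of these markers. Of these markers, 9 of 10 had log2 fold changes below 0, edgeR called 0 of 10, and 2 had an unadjusted p under 0.05. Over all genes tested, 6969 of 14124 were below 0, 1.05% were called and 4.08% had such a p. The part of these markers in the Adam15 values was not tested.

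The other 3 were Adamts3, Mmp19 and Adamts17. Adamts3 measured 1.83, 2.47 and 2.04 CPM across TG replicates 1 to 3, beside 1.46, 1.2 and 1.64 CPM across WT replicates 1 to 3, all TG values above the WT values, with a log2 fold change of 0.56 (95% CI -0.02 to 1.14). Adamts17 measured 3.27, 6.32 and 3.5 CPM in the TG libraries, against 2.8, 2.79 and 3.76 CPM in the WT libraries. Its log2 fold change of 0.49 (95% CI -0.17 to 1.14) became 0.12 without TG replicate 2, the library with high Cfd and Fabp4.

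**Figure D4:**
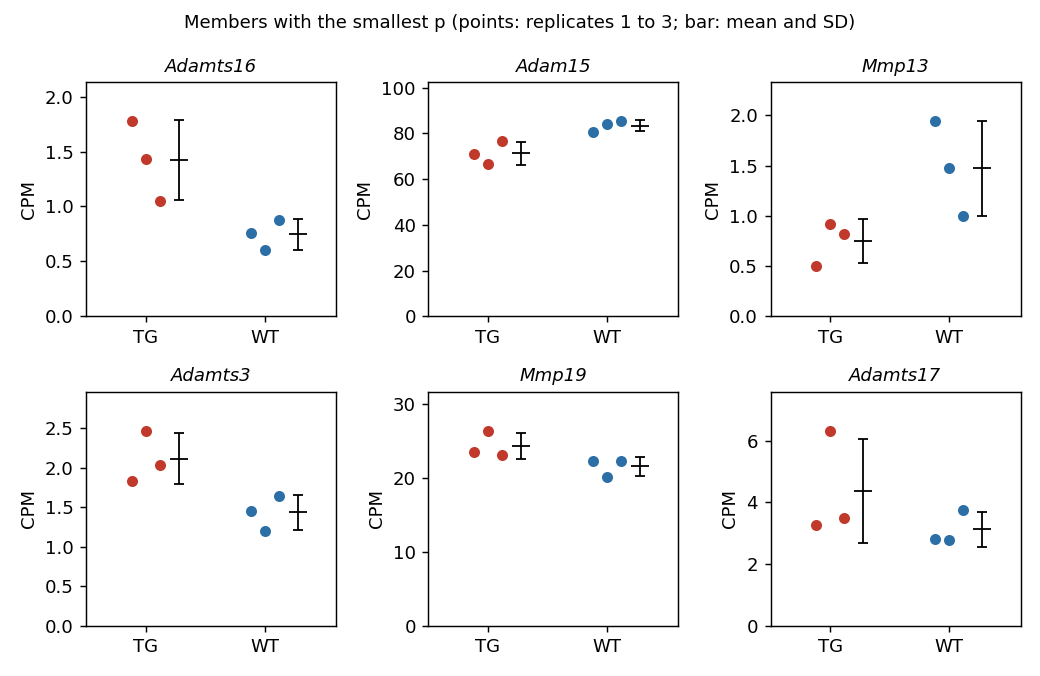
CPM in each library of the 6 genes with the smallest unadjusted p, TG in red at the left and WT in blue at the right of each panel, with points for replicates 1 to 3 and a black bar for the mean and SD. The groups do not overlap for Adamts16, Adam15, Mmp13, Adamts3 and Mmp19, and the values of 5 of the 6 genes are below 30 CPM.

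Much of the variation of the set lay between animals of one genotype. WT replicate 2 was the lowest library for 21 of the 52 genes (40.4%), while it was the lowest for 19.5% of all genes tested, and it was the highest for 1, Adam17. TG replicate 2 was the lowest for 13 (25%), against 18.3% of all genes. TG replicate 1 and WT replicate 1 were each the highest for 14 genes (26.9%), against 16.1% and 15.3% of all genes, and WT replicate 3 for 13 (25%), against 21.7%. The summed level of the stromal fibroblast markers was also lowest in WT replicate 2, at 2818 CPM, against 3125 to 3933 CPM in the other libraries. Several other marker lists also had an extreme in this library. Oocyte markers summed to 116 CPM, against 149 to 219 CPM elsewhere. Luteal markers summed to 4784 CPM, against 3048 to 4082, and endothelial markers to 1032 CPM, against 671 to 860. The granulosa, smooth muscle and myeloid sums were neither highest nor lowest in WT replicate 2. Star, which brings cholesterol to the first step of steroid synthesis, was highest there, as was Cyp11a1 of the same theca marker list. Cyp17a1, Insl3 and Gli1 of that list were lowest there, and Hsd3b1, Aldh1a1 and Ptch1 were neither. The part of these markers in the pattern was not tested. The within-genotype SD on the log2 scale had a median of 0.18 for the 29 genes with at least 10 CPM, against 0.12 over all genes at that level.

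**Figure D5:**
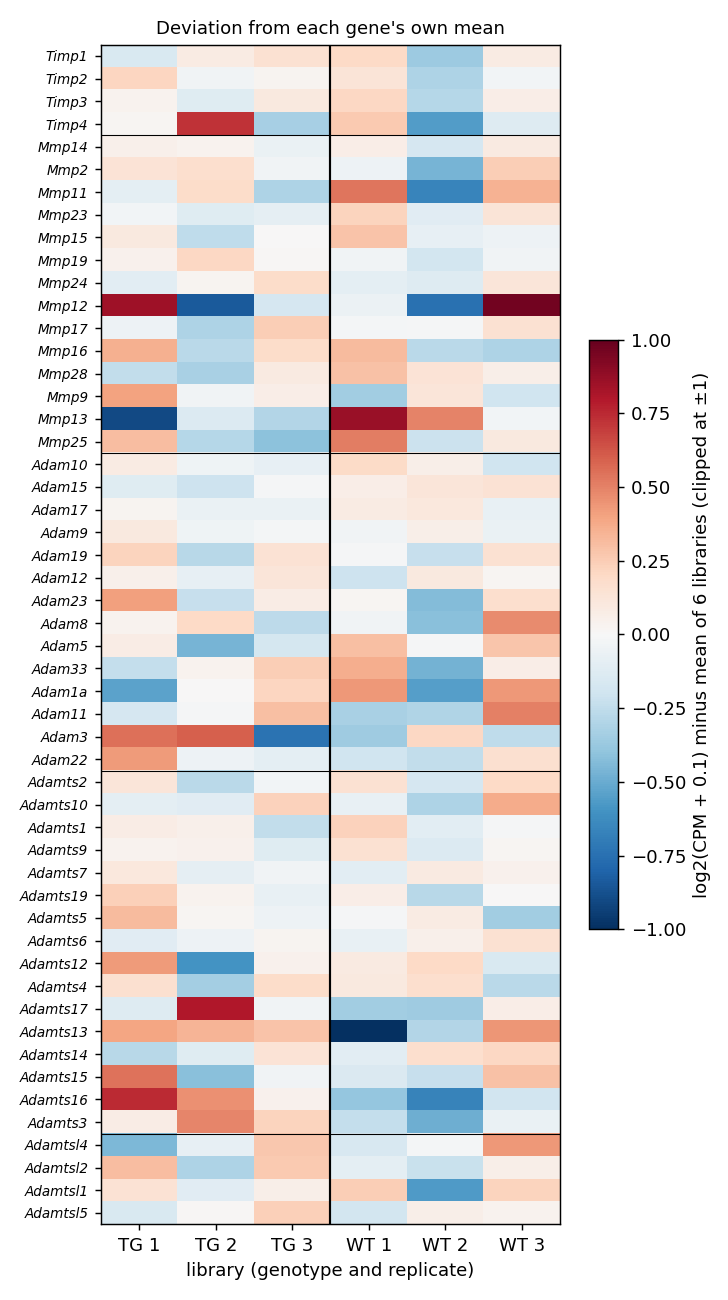
Deviation of each gene in each library from its own mean over the 6 libraries, on the scale of log2(CPM + 0.1), with colours clipped at 1 either way, TG libraries left of WT libraries and genes grouped by family. The column of WT replicate 2 is mostly blue (below the mean), with 36 of 52 genes below their own mean, and Mmp12 is far above its mean in TG replicate 1 and WT replicate 3.

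Genes that activate, anchor or clear these proteases gave 0 calls in either direction among 30 tested in edgeR, DESeq2 and limma-voom. In edgeR 2 had an unadjusted p under 0.05. Over all genes tested, edgeR called 1.05%, and 4.08% had such a p. Cd44, a hyaluronan receptor that docks MMPs at the cell surface, measured 38.2, 41.1 and 47.6 CPM across TG replicates 1 to 3, beside 36.9, 28.7 and 33.4 CPM across WT replicates 1 to 3, with a log2 fold change of 0.36 (95% CI 0.09 to 0.63) and every TG value above the WT values. Tspan33 and Tspan17, tetraspanins that escort Adam10 to the surface, had log2 fold changes of -0.67 (95% CI -1.25 to -0.08) and 0.21 (95% CI -0.02 to 0.44), and Tspan5 of the same group had -0.18 (95% CI -0.41 to 0.06). The median of this list was -0.0087.

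Of 29 tested proteins that are shed, with their receptors, edgeR called 0 in either direction, against 1.05% of all genes tested. Against 4.08% of all genes tested, 1 had an unadjusted p under 0.05. This was Csf1, the macrophage growth factor that Adam17 can release, which measured 21.3, 17.4 and 22.9 CPM across TG replicates 1 to 3, beside 31.7, 23.7 and 36.8 CPM across WT replicates 1 to 3. All TG values were below all WT values, with a log2 fold change of -0.58 (95% CI -0.96 to -0.20) and an adjusted p of 0.378 in edgeR. Without WT replicate 2, the log2 fold change of Csf1 was -0.74 with an adjusted p of 0.0479 in edgeR, while with each of the other 5 libraries left out in turn its adjusted p lay between 0.498 and 0.846. The myeloid markers given above were also lower in summed level in TG, and their part in the Csf1 values was not tested. Notch4, Cxcl16 and Areg had log2 fold changes of -0.36 (SE 0.19), -0.27 (SE 0.15) and 0.72 (SE 0.41), and the list median was -0.04.

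A list of matrix substrates also held the hyaluronan synthases Has2 and Has3 and hyaluronan-linked proteins such as Tnfaip6. Among its 34 tested genes, 0 were called in either direction by edgeR and 2 had an unadjusted p under 0.05. The shares over all genes tested were 1.05% and 4.08%, and the list median was 0.01. Acan (aggrecan) measured 12.2, 7.52 and 11.6 CPM across TG replicates 1 to 3, beside 5.66, 5.64 and 9.34 CPM across WT replicates 1 to 3, with a log2 fold change of 0.60 (95% CI 0.04 to 1.17). Eln (elastin), Vcan (versican, the Adamts1 substrate) and Fbn2 (fibrillin-2) had log2 fold changes of -0.28 (95% CI -0.55 to -0.01), 0.20 (95% CI -0.02 to 0.42) and 0.31 (95% CI -0.05 to 0.67). Without TG replicate 2 plus WT replicate 3, the log2 fold change of Acan was 1.07 with an adjusted p of 0.0450 in edgeR, while over the other alternatives its adjusted p was 0.363 or higher. Libraries of both genotypes overlapped for Acan, Vcan and Fbn2, and for Eln every TG value was below every WT value.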

How the data were processed

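RNA from whole ovaries of 3 TG and 3 WT mice, 44 h after PMSG, gave 6 libraries, grouped by the labels' titles. Per gene, the authors deposited estimated counts of reads (expected counts that need not be whole). The authors also deposited FPKM values; the column names do not state the FPKM unit, which was identified from the values. Bowtie2, RSEM 1.3.1, DESeq2 1.4.5 and mm10 are named in the submitters' processing notes, and strandedness and annotation release are not given in the sources used here. Nothing in the labels says how the replicates were prepared beyond separate samples, so p-values measure the spread between these samples.

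Estimated counts were rounded, genes filtered with filterByExpr (minimum count 10), and libraries scaled by TMM (factors 0.990 to 1.02) in edgeR 4.0.16. The quasi-likelihood test of TG over WT covered 14124 of 18280 genes, with Benjamini-Hochberg adjustment and a threshold of 0.05. CPM values use the scaled library sizes and compare genotypes, and FPKM compares genes. The common biological coefficient of variation was 12.5%, and between 8.50% and 9.12% of the counts in a library were not whole. Intervals are 95% intervals of the fit. The procedure was tested on simulated counts, drawn independently for each gene, which hold no shift shared by many genes of a library. Alternatives used DESeq2 1.42.0, limma 3.58.1, other scalings and filters, a replicate term, and libraries left out.

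The 52 genes and the gene lists were chosen with earlier results of these data known. Named were the genes past the threshold (0), the 6 with the smallest p, the 4 most abundant of each family, textbook ovarian proteases, those next to the count limit, and up to 4 of each pathway list; other genes are named to account for every member. Positions and promoter letters are from RefSeq (GRCm38.p6), and exon overlaps from a GENCODE mouse annotation, where all 52 symbols were found. The counting's treatment of reads in overlapping exons was not tested.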

Additional observations from a re-analysis of the deposited data

How the results depend on the processing

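Under all 18 alternatives, 0 of the 52 genes were called, and Dennd1a kept its call with a log2 fold change between 3.61 and 3.79. The count at an unadjusted p under 0.05 was 3 in edgeR. It was 1 with at least 50 counts in 3 libraries (37 of the genes tested) and with DESeq2. It was also 1 with limma-trend after the filter of 1 FPKM at either pseudocount (36 tested). It was 5 without TG replicate 2 plus WT replicate 3, and 0 to 6 with each library left out in turn. The share of all genes tested with such a p also moved. It was 3.866% with at least 50 counts in 3 libraries, 2.904% with DESeq2, and 4.073% and 4.057% with limma-trend at pseudocounts 1 and 0.1. It was 6.568% without TG replicate 2 plus WT replicate 3, and 3.527% to 5.198% with each library left out. Of the genes of the 3 pathway lists, 0 were called in edgeR; 1 was called with the replicate block (Csf1, log2 fold change -0.57, adjusted p 0.0338 in edgeR), 1 without TG replicate 2 plus WT replicate 3 (Acan), and 0 to 1 with each library left out. The cause of these changes was not tested. The median log2 fold change of the 52 genes lay between -0.03 and 0.10. Of 487 values of 28 named genes over the alternatives, 435 kept their sign and 52 turned it; all 28 genes stayed above the threshold of 0.05 throughout. The log2 fold changes whose sign turned were, with upper-quartile scaling Adamts10 0.0069 and Timp3 0.012, with library totals alone Adamts10 0.0030 and Timp3 0.0069, with the replicate block Adamts10 0.0099 and Timp3 0.0089, with neither TG replicate 2 nor WT replicate 3 Adamts2 0.049, Adamts10 0.26, Adamtsl4 0.043, Timp3 0.084 and Timp4 -0.056. They were also, with limma-voom Adamts10 0.014, Adamts4 -0.00073 and Timp3 0.0092, with limma-trend on log2(FPKM + 1) after a filter Adamts10 0.033, Adamts9 0.027 and Timp3 0.017, with limma-trend on log2(FPKM + 0.1) after a filter Adamts10 0.037, Adamts9 0.030 and Timp3 0.018, with limma-trend on log2(FPKM + 1) with no filter Adamts10 0.033, Adamts9 0.027 and Timp3 0.017. Leaving out each library in turn, the log2 fold changes that crossed 0 spanned Adam9 -0.018 to 0.063, Adamts10 -0.15 to 0.20, Adamts4 -0.11 to 0.16, Adamtsl1 -0.20 to 0.16, Mmp14 -0.071 to 0.051, Timp3 -0.13 to 0.10 and Timp4 -0.044 to 0.57. Those of the other genes that crossed 0 spanned Adamts1 -0.15 to 0.024, Adamts9 -0.099 to 0.041, Adamtsl5 -0.049 to 0.18, Timp1 -0.11 to 0.15, Adam10 -0.14 to 0.048, Mmp11 -0.50 to 0.010, Mmp2 -0.014 to 0.34 and Adamtsl4 -0.36 to 0.031.

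Same-numbered TG and WT libraries had deviations that correlated with r = 0.228, 0.0797 and 0.0935, against -0.130 to 0.0346 for the other pairs. Each library thus correlated best with its own number. These values do not settle whether the replicate numbers pair the samples, and the main test left them unpaired. With the replicate block, 159 of all genes were called, against 149 without it, and 0 of the 52. The share of all genes tested with an unadjusted p under 0.05 in edgeR was 6.05% with the block and 4.08% without it. The standard error was larger at low counts, with a median of 0.29 for genes under 10 CPM; how much of it is depth was not tested.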
